A study of Danio rerio with 30 samples.

Results

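Axon guidance ligands and receptors were followed in the adult zebrafish telencephalon, the front part of the brain, before and after a stab wound. The members were all genes whose single symbol in the array annotation begins as a semaphorin of classes 3 to 7, a plexin, neuropilin 1 or 2, a slit, a robo, a netrin, an Eph receptor or an ephrin, and whose probe set reached a linear mean above 20 in any group. Of 86 such genes on the array, 80 passed this level filter, out of 14372 genes with 1 symbol that passed it in all. They comprised 11 secreted semaphorins, 17 membrane semaphorins, 10 plexins, 4 neuropilins, 4 slits, 4 robos, 2 netrins, 8 EphA and 7 EphB receptors, 8 ephrin-A and 5 ephrin-B genes. The 6 genes that did not pass were ntn1a, plxnb2a.2, plxnb2a.3, sema3d, sema4e and epha2a. The gene nearest the filter from below was epha2a, with a highest linear group mean of 19.9, and the nearest above it were sema6ca at 21.6 and sema3ab at 24.4.

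These families guide growing axons and migrating cells by attraction or repulsion, and several also act on blood vessels, glia and immune cells. Secreted class 3 semaphorins signal through plexins with neuropilins as co-receptors, and membrane semaphorins mostly bind plexins directly. Slits act through Robo receptors and netrins through Dcc and Unc5 receptors. Eph receptors are tyrosine kinases that bind ephrins on neighbouring cells, where ephrin-A proteins are anchored by lipid and ephrin-B proteins span the membrane, so that contact can signal into both cells.

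RNA of the whole telencephalon was hybridised to Affymetrix Zebrafish Gene 1.0 ST arrays, and all fish were wild-type. The injured groups were skull injury, in which a micro-knife was pushed vertically through the skull into the medial telencephalon, and nostril injury, in which a thin glass capillary was inserted through the nostril, each in both hemispheres and each at 1, 2, 3 and 7 days post-injury (dpi). They were set against intact fish without injury, with n = 4 for skull injury at 3 dpi and for intact and n = 3 for each other group, 29 replicates in all. The labels give an age of 3 to 5 months and the study's methods 1 month more at both ends. No source used here says whether a replicate was 1 fish or a pool, so p-values measure the spread between these samples, which may be partly technical. Levels are log2 RMA values, and differences between groups are log2 differences, injured minus intact, with the standard error (SE) of the fit.

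The 4 libraries of skull injury at 3 dpi were less alike than those of any other group, with pairwise correlations over all probe sets of 0.963 to 0.974, against 0.979 to 0.988 within the other 8 groups. Their residual variance over the 80 genes was 0.0933, against 0.0231 to 0.0570 in the other groups. Of 15 telencephalon marker genes listed, 14 were on the array and all 14 passed the level filter, while 4 of 15 markers of neighbouring brain regions did. The summed level of these neighbouring markers was high in single replicates of some groups, with values given below. In RNA of whole tissue, fewer cells of a type and less RNA per cell cannot be told apart.

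The spread of the 80 genes was first taken over all 29 replicates. The range between the lowest and the highest replicate of a gene had a median of 0.94 on the log2 scale, from 0.46 for efnb1 to 2.34 for efna1b. It was under 1 for 48 genes and 1 or more for 32. No such range was taken over all tested probe sets, and it joins spread within groups with change between them. The moderated F test of limma, which asks whether any injury group differs from intact, called 8 of the 80 genes at an adjusted p under 0.05, or 10%, where 10.3% of all 40670 tested probe sets were called. They were epha7 (adjusted p = 0.00447), sema3h (0.00472), nrp2b (0.0184), sema3fa (0.0185), efna1a (0.0195), sema4gb (0.0198), ephb2a (0.0214) and ephb6 (0.0378). Without replicate 2 of skull injury at 3 dpi the count was 13. Counts from such refits, here and below, mostly stand without the share of all probe sets called in the same refit. They do not set these genes against the rest of the array. The group in which a gene had its lowest mean was skull injury at 3 dpi for 34 of the 80 genes, and the group of its highest mean was skull injury at 7 dpi for 25. Neither count was taken over all tested probe sets, so neither shows a trait particular to the guidance genes. The residual variance over all tested probe sets was also largest in skull injury at 3 dpi, at 0.173, against 0.0732 to 0.100 in the other groups. In every group it lay above that of the 80 genes. The 80 are 1 probe set per named gene, while the 40670 also hold second probe sets and those without a single symbol. Shares of these sets, here and below, therefore do not compare like with like.

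**Figure D1:**
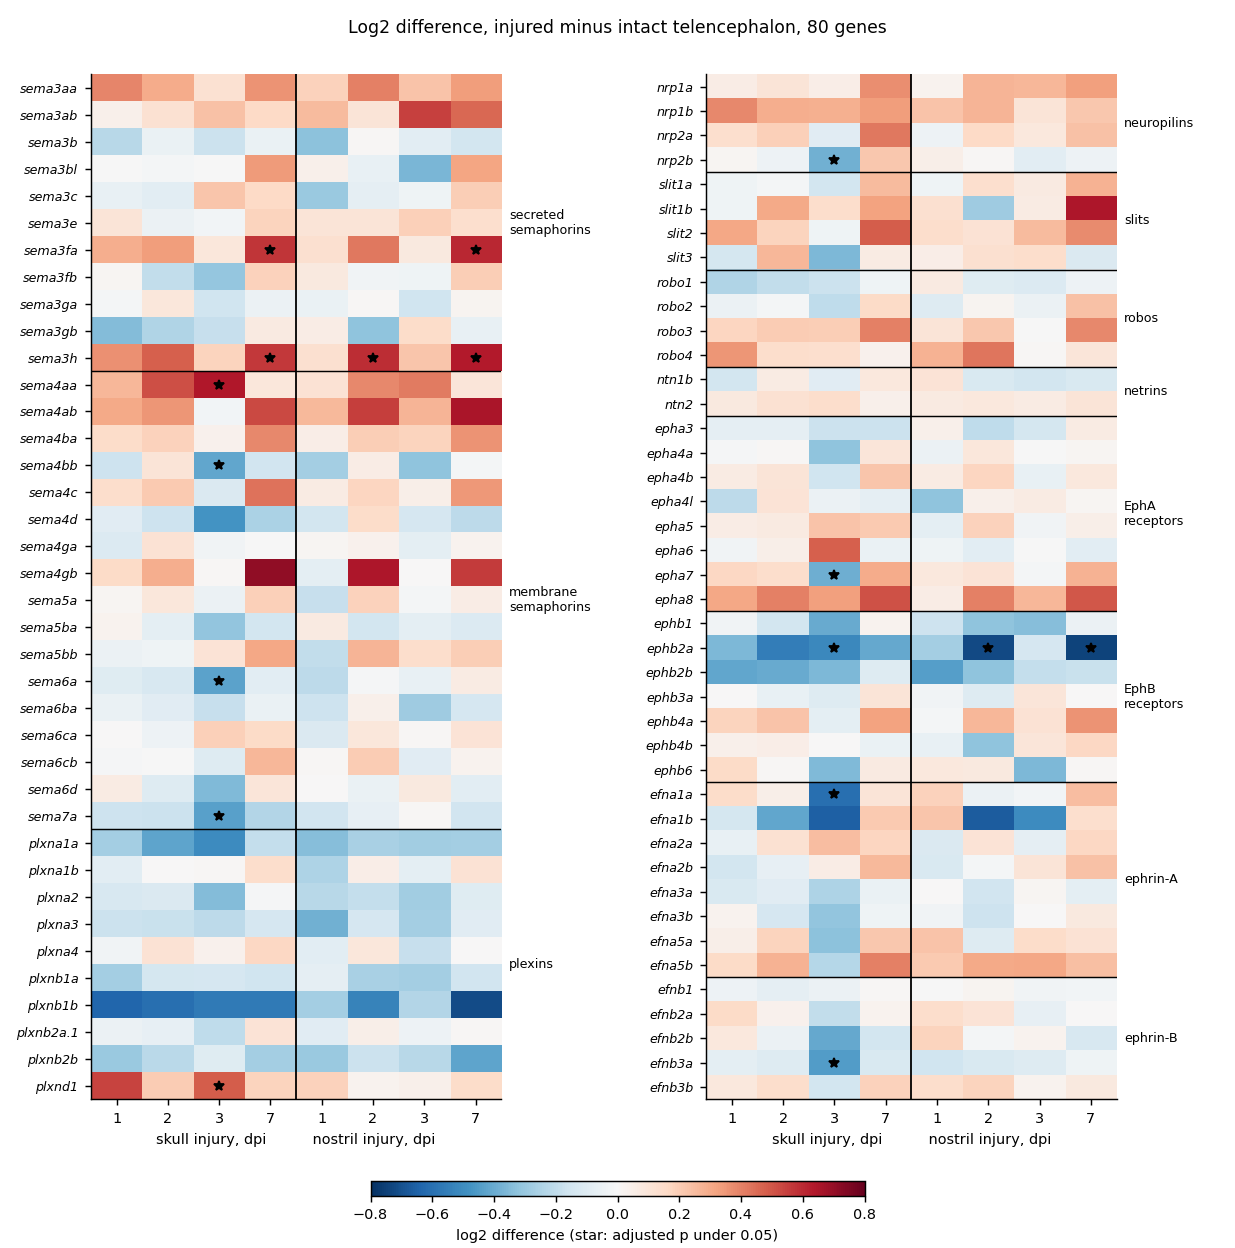
Log2 difference from intact for each of the 80 genes (rows, by family) at 1, 2, 3 and 7 dpi after skull injury (left of each panel) and nostril injury (right); colour runs from -0.8 to 0.8 and a star marks an adjusted p under 0.05. Stars are most frequent in the column of skull injury at 3 dpi, where 10 genes were called, and sema3h and ephb2a carry 3 stars each.

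The genes called against intact in more than 1 comparison were the secreted semaphorins sema3h and sema3fa, which were higher, and the receptor ephb2a, which was lower. sema3h had levels of 9.02, 8.88 and 8.86 in skull injury at 7 dpi and of 9.03, 8.98 and 8.95 in nostril injury at 7 dpi, against 8.52, 8.38, 8.40 and 8.12 in intact telencephalon. No replicate of either injury at 7 dpi overlapped with intact. sema3h rose by 0.56 after skull injury (SE 0.12, adjusted p = 0.0281) and by 0.63 after nostril injury (SE 0.12, adjusted p = 0.00812), a 1.48-fold and a 1.55-fold difference. It also rose by 0.59 in nostril injury at 2 dpi (SE 0.12, adjusted p = 0.0201), where the replicates had levels of 8.98, 8.96 and 8.90. At 2 dpi after skull injury its difference was 0.48 (adjusted p = 0.111) and the replicates, at 8.81, 8.99 and 8.69, also lay above all intact ones. At 3 dpi the differences were 0.18 after skull and 0.22 after nostril injury, and replicates of both groups overlapped with intact.

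sema3fa is 1 of the zebrafish copies of Sema3f, whose mammalian protein binds neuropilin 2. Its levels were 8.19, 8.15 and 8.24 in skull injury at 7 dpi and 8.23, 8.37 and 8.09 in nostril injury at 7 dpi, against 7.50, 7.60, 7.89 and 7.51 in intact telencephalon. The groups did not overlap. sema3fa rose by 0.57 after skull injury (SE 0.13, adjusted p = 0.0466) and by 0.61 after nostril injury (SE 0.13, adjusted p = 0.0217). Earlier, sema3fa was 0.29 above intact at 1 dpi after skull injury, with overlap. At 2 dpi it was 0.34 above intact after skull and 0.42 after nostril injury, without overlap. None of these passed the adjustment. At 3 dpi it was 0.09 above intact after skull injury and 0.08 after nostril injury, neither past the threshold.

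ephb2a, a receptor for ephrin-B, was called lower than intact in 3 comparisons. Its levels were 5.46, 5.44 and 5.41 in nostril injury at 7 dpi, against 5.94, 6.36, 6.27 and 6.14 in intact telencephalon, and the groups did not overlap. It fell by 0.74 (SE 0.16, adjusted p = 0.0176). In nostril injury at 2 dpi its levels were 5.42, 5.39 and 5.56, again below all intact replicates, and it fell by 0.72 (SE 0.16, adjusted p = 0.0366). In skull injury at 3 dpi its levels were 5.87, 5.46, 5.71 and 5.59 and it fell by 0.52 (SE 0.15, adjusted p = 0.0317), and at 7 dpi after skull injury its difference was -0.41 (adjusted p = 0.215), with levels of 5.46, 5.82 and 6.01 that reached into the intact range. At 1 and 2 dpi after skull injury its differences were -0.36 and -0.55, without overlap and not past the adjustment. At 3 dpi after nostril injury ephb2a was not called, and its difference between 7 and 3 dpi was -0.61.

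**Figure D2:**
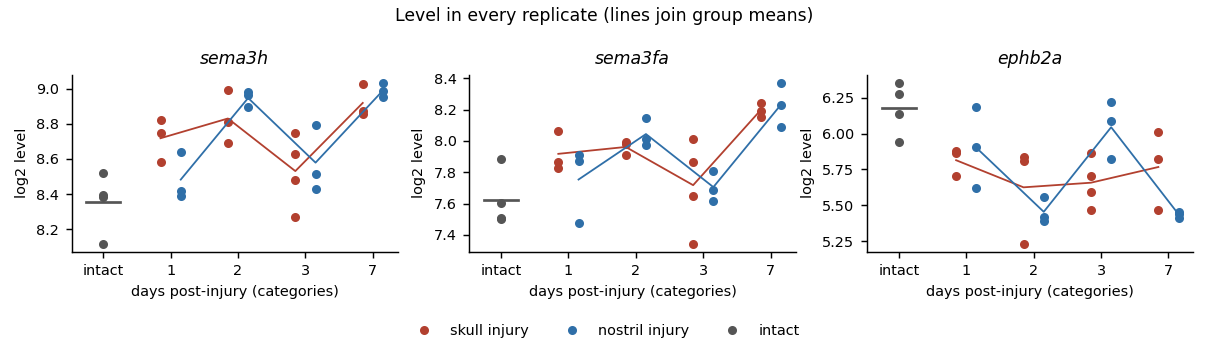
Log2 level of sema3h, sema3fa and ephb2a in every replicate (points) of intact telencephalon and of skull (red) and nostril (blue) injury at 1, 2, 3 and 7 dpi; lines join the group means and the bar at intact is its mean. For sema3h and sema3fa both injury groups at 7 dpi lie above all intact points. For ephb2a the skull groups at 1, 2 and 3 dpi and the nostril groups at 2 and 7 dpi lie below them.

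At 7 dpi after nostril injury, sema3h, sema3fa and ephb2a were the 3 of the 80 genes called (3.75%), where 1.76% of all tested probe sets were called. Before adjustment, 15 genes were higher and 3 lower at p under 0.05, or 18.8% and 3.75% of the 80, where 8.95% and 7.43% of all probe sets were. At 7 dpi after skull injury, sema3h and sema3fa were the 2 genes called (2.5%), where 0.757% of all probe sets were called, and 17 genes were higher and 2 lower before adjustment (21.2% and 2.5%), where 8.62% and 6.31% of all were. The median difference of the 80 genes was 0.11 after skull injury and 0.07 after nostril injury, and that of all tested probe sets was 0.01 and 0.00. Both comparisons share the same intact samples. The neuropilins, co-receptors of class 3 semaphorins, were all among those with an unadjusted p under 0.05 at 7 dpi after skull injury, at 0.37 for nrp1a, 0.33 for nrp1b, 0.42 for nrp2a and 0.21 for nrp2b, and none passed the adjustment (nrp2a nearest, adjusted p = 0.0708). At 7 dpi after nostril injury they were at 0.33, 0.21, 0.23 and -0.04 in the same order, and only nrp1a and nrp2a had an unadjusted p under 0.05. Skull minus nostril injury at 7 dpi, tested directly, gave 0.04, 0.12, 0.19 and 0.25 in that order, none past the adjustment. sema4gb, a membrane semaphorin, had the largest difference of the 80 in skull injury at 7 dpi, at 0.71 (SE 0.19, adjusted p = 0.0705), with levels of 6.05, 5.78 and 5.68, against 5.09, 5.18, 4.86 and 5.38 in intact telencephalon.

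Markers of neurons also lay higher at 7 dpi. Of 15 neuronal marker genes tested, 8 were higher and 0 lower before adjustment at 7 dpi after skull injury, and 6 and 0 after nostril injury, where snap25b was called (0.50, adjusted p = 0.0282). Their summed linear level was 20872 to 21819 in skull injury at 7 dpi and 19802 to 21218 in nostril injury at 7 dpi, against 16532 to 20291 in intact telencephalon. The summed level of 8 oligodendrocyte progenitor markers was 1079 to 1228 in skull injury and 988 to 1221 in nostril injury at 7 dpi, against 785 to 1006 in intact telencephalon, and that of 5 olfactory bulb and epithelium markers was 265 to 293 and 259 to 267, against 216 to 239. The 13 ependymoglia markers summed to 14878 to 15179 in skull injury and 13584 to 15718 in nostril injury at 7 dpi, against 15312 to 19560 in intact telencephalon. The part of these markers in the results on the guidance genes was not tested. The counts of calls at 7 dpi rest on few replicates. For nostril injury the count was 0 without nostril injury replicate 1 and 1 without its replicate 2 or without intact replicate 2. For skull injury it was 0 without intact replicate 2 or 4 or any 1 replicate of skull injury, 1 without intact replicate 1, and 7 when skull injury at 3 dpi was left out of the fit. The share of all probe sets called in that last fit is not given here. When each comparison was fitted on its own 2 groups alone, no gene was called in either (adjusted p of sema3h 0.158 for skull and 0.116 for nostril injury).

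**Figure D3:**
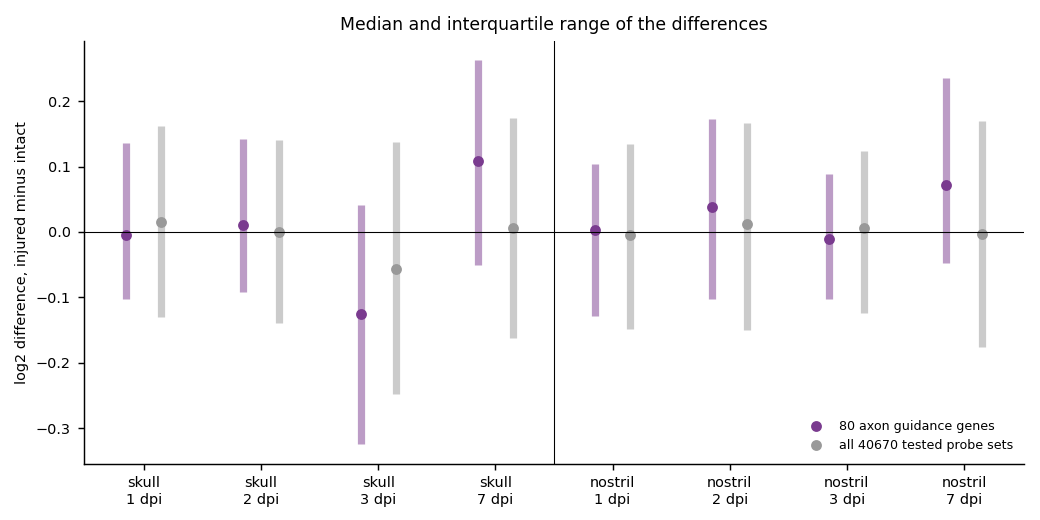
Median (points) and interquartile range (bars) of the log2 differences from intact for the 80 genes and for all 40670 tested probe sets, at 1, 2, 3 and 7 dpi after skull injury (left) and nostril injury (right). The median of the 80 genes is lowest at 3 dpi after skull injury, at -0.13, and highest at 7 dpi after skull injury, at 0.11.

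Of the 8 comparisons with intact, skull injury at 3 dpi had the most calls, and most of them were lower than intact. Of the 80 genes 10 were called (12.5%), 8 lower and 2 higher, where 7.86% of all tested probe sets were called. Before adjustment, 22 were lower and 4 higher at p under 0.05 (27.5% and 5%), where 16.1% and 9.38% of all probe sets were. After a further quantile normalization 18 were lower and 9 higher before adjustment, and the calls over all probe sets, 1944 lower and 1251 higher without that step, were 1429 lower and 1734 higher. The median difference was -0.13 over the 80 genes and -0.06 over all. The lower genes were the membrane semaphorins sema6a, sema7a and sema4bb, the co-receptor nrp2b, the receptors epha7 and ephb2a and the ligands efna1a and efnb3a, and the higher ones were sema4aa and plxnd1.

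Among the receptors, nrp2b had levels of 7.56, 7.59, 7.62 and 7.73 in skull injury at 3 dpi, against 7.84, 8.12, 8.0 and 8.08 in intact telencephalon. The groups did not overlap, and nrp2b fell by 0.38 (SE 0.09, adjusted p = 0.0150). epha7, a receptor for ephrin-A, had levels of 8.77, 9.32, 9.04 and 8.89, against 9.31, 9.25, 9.45 and 9.57 in intact telencephalon, with 1 overlapping replicate, and fell by 0.39 (SE 0.10, adjusted p = 0.0211). Its differences at the other times were smaller, at 0.16, 0.14 and 0.30 at 1, 2 and 7 dpi after skull injury and at 0.08, 0.11, -0.01 and 0.28 at 1, 2, 3 and 7 dpi after nostril injury, none past the adjustment. plxnd1, whose mouse protein is the receptor for Sema3e in blood vessels, had levels of 5.83, 5.58, 5.68 and 5.96, against 5.42, 5.18, 5.24 and 5.26. All 4 injured replicates lay above the intact ones, and it rose by 0.48 (SE 0.14, adjusted p = 0.0401). At 1 dpi after skull injury plxnd1 had levels of 5.89, 5.87 and 5.70, also above all intact ones, with a difference of 0.54 that did not pass the adjustment (adjusted p = 0.142).

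Among the ligands, efna1a had levels of 7.68, 8.0, 7.13 and 7.54 in skull injury at 3 dpi, against 8.18, 7.93, 8.28 and 8.36 in intact telencephalon. Replicate 2 of the injured group overlapped with intact, and efna1a fell by 0.60 (SE 0.15, adjusted p = 0.0175). sema4aa, a copy of Sema4a, which in mammals acts on immune cells, had levels of 5.29, 5.86, 4.98 and 5.53, against 4.81, 4.82, 4.82 and 4.65, with no overlap, and rose by 0.64 (SE 0.16, adjusted p = 0.0182). At the other times after skull injury sema4aa was 0.27 above intact at 1 dpi, 0.52 at 2 dpi and 0.09 at 7 dpi, none past the adjustment.

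The other lower ligands lay further down the list. sema6a, a membrane semaphorin that binds class A plexins in mice, had levels of 7.32, 7.74, 7.36 and 7.79 in skull injury at 3 dpi, against 7.89, 8.13, 7.91 and 8.01 in intact telencephalon, and fell by 0.43 (SE 0.11, adjusted p = 0.0218). sema7a, a semaphorin anchored by lipid, had levels of 6.31, 6.06, 6.39 and 6.39, against 6.77, 6.81, 6.85 and 6.46 in intact telencephalon, and fell by 0.44 (SE 0.13, adjusted p = 0.0351). efnb3a, a ligand of EphB receptors and EphA4, had levels of 6.88, 6.69, 6.44 and 6.93, against 6.94, 7.31, 7.25 and 7.23, and fell by 0.45 (SE 0.14, adjusted p = 0.0455). In none of the 3 did the groups overlap, though the highest injured and the lowest intact replicate of efnb3a were 6.93 and 6.94. sema4bb had levels of 5.71, 5.35, 5.16 and 5.63, against 5.88, 5.99, 5.93 and 5.71, with the highest injured replicate at the lowest intact one, and fell by 0.41 (SE 0.13, adjusted p = 0.0469). The ephrin-B genes were all below intact, with a median of -0.19, and 6 of 8 ephrin-A genes were, with a median of -0.28. Of all 80 genes 55 were below intact, and the median of all tested probe sets was -0.06. The largest difference of the 80 was that of efna1b, at -0.65, with levels of 8.97, 8.56, 8.39 and 8.75, against 9.40, 9.09, 9.33 and 9.47. It did not pass the test (adjusted p = 0.184), and its levels over all groups spread from 8.26 to 10.60.

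**Figure D4:**
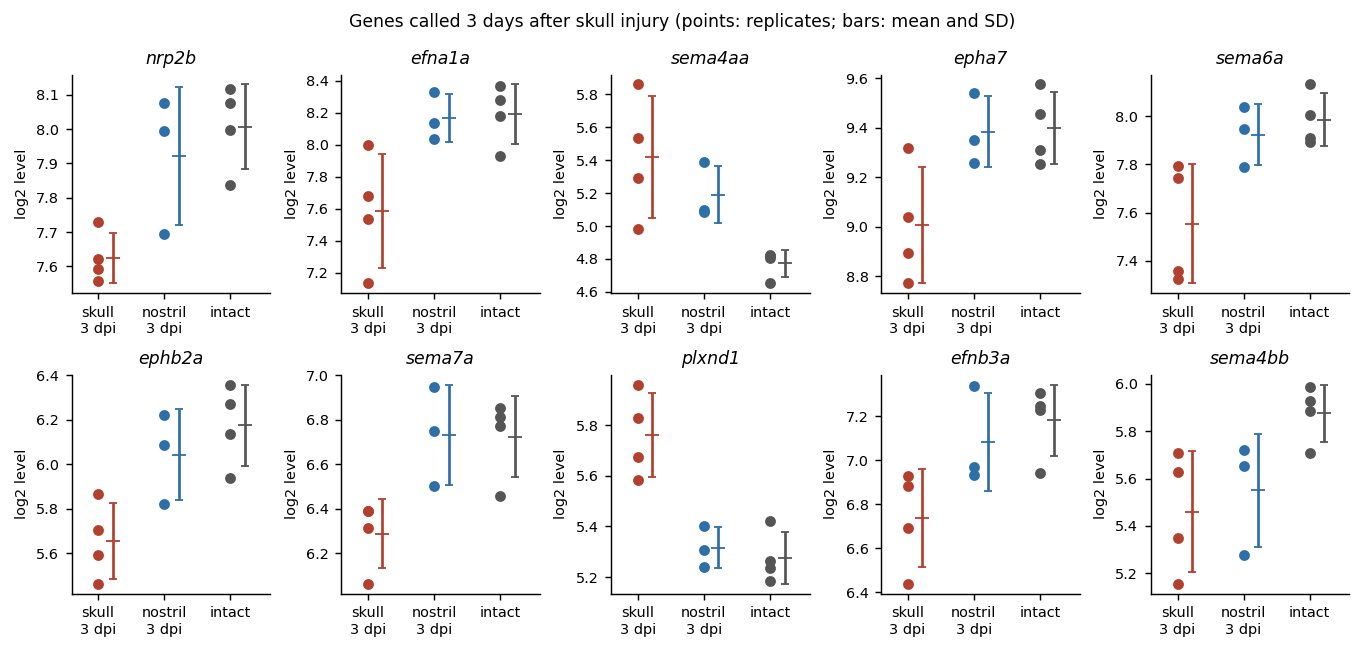
Log2 level of the 10 genes called in skull injury at 3 dpi, in every replicate (points) of skull injury at 3 dpi, nostril injury at 3 dpi and intact telencephalon, with the mean and SD of each group beside the points and a scale of its own for each gene. The 4 skull injury points of nrp2b, sema6a, ephb2a, sema7a and efnb3a lie below, and those of sema4aa and plxnd1 above, all intact points.

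Markers of other cell types moved strongly in the same libraries. Of 16 microglia and macrophage markers tested, 14 were called higher in skull injury at 3 dpi, with a median difference of 1.17, and the summed linear level of the 17 on the array was 6581 to 9646 in skull injury and 7036 to 7879 in nostril injury at 3 dpi, against 4140 to 5680 in intact telencephalon. Of 13 ependymoglia markers, gja1b, glula and cyp19a1b were called lower, by -1.17, -0.61 and -0.67, and the summed level was 10736 to 14300 in skull injury at 3 dpi, against 15312 to 19560 in intact telencephalon. The myelin gene mbpa was also lower, by -1.04, and of 15 neuronal markers nefla (1.16) and nefma (1.01), both neurofilament genes, were called higher and none lower. The summed level of these 15 was 15186 to 19011 in skull injury at 3 dpi (median 16766), against 16532 to 20291 (median 18366) in intact telencephalon, and before adjustment 3 were higher and 6 lower. The part of these cell types in the results on guidance genes was not tested. The SEs and p-values rest on 1 variance per gene shared by all 9 groups, although replicates of skull injury at 3 dpi varied most. When each array was weighted by its spread, these replicates had the lowest weights of all, from 0.324 to 0.576. Only epha7 was then called, so the calls depended on how this spread was treated. No gene of the 80 reached the 1.6-fold difference that the study's criteria require. The count of 10 was 2 without intact replicate 4, 4 without intact replicate 2 or 3 and 6 without replicate 1 or 3 of skull injury. It was 7 (2 higher) after a further quantile normalization, where 1734 of all probe sets were called higher and 1429 lower. With arrays centred on their medians it was also 7 (2 higher), where 1197 of all were called higher and 1578 lower. The count was 5 with no level filter, 1 (epha7) with each array weighted by its spread and 0 when the 2 groups alone were fitted. nrp2b was called without any 1 replicate (adjusted p up to 0.0484), and each of the others lost its call without at least 1 (adjusted p up to 0.149).

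At matched times, 1 gene was called between the injuries. At 3 dpi efna1a had levels of 7.68, 8.0, 7.13 and 7.54 after skull injury, against 8.33, 8.04 and 8.13 after nostril injury. The groups did not overlap, and efna1a was lower after skull injury by -0.58 (SE 0.16, adjusted p = 0.0485), the only call among the 80 (1.25%), where 3.55% of all tested probe sets were called. The genes nearest to it were epha7 at -0.38 (adjusted p = 0.0548) and sema7a at -0.44 (adjusted p = 0.0637). Before adjustment, 16 of the 80 genes were lower after skull injury and 3 higher at p under 0.05 by limma (20% and 3.75%). The share of all probe sets at that threshold is not given here. The median difference was -0.10 over the 80 genes and -0.05 over all tested probe sets. The call on efna1a lies at the threshold. It was lost without replicate 1, 3 or 4 of skull injury or any 1 replicate of nostril injury (adjusted p 0.0663 to 0.197). The count was 6 without replicate 2 of skull injury and 2 without its replicate 4 or without replicate 2 of nostril injury, and efna1a had an adjusted p of 0.401 when these 2 groups alone were fitted. Of the 13 ependymoglia markers, gja1b, glula, cyp19a1b and fabp7a were called lower in the skull injury group than in the nostril injury group as well, by -1.12, -0.68, -0.54 and -0.39, and of the neuronal markers nefla was called higher, by 1.13. The summed neuronal level was 15186 to 19011 after skull injury (median 16766), against 17854 to 18748 (median 18541) after nostril injury. Their part in the difference of efna1a was not tested.

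At 1, 2 and 7 dpi limma called 0 of the 80 genes between skull and nostril injury, where 0.0344%, 0% and 0% of all tested probe sets were called. At an unadjusted p under 0.05 the counts were 2 of 80 on each of these days, where 6.56%, 2.33% and 2.85% of all were. At 7 dpi sema3h differed by -0.07 (SE 0.13) and sema3fa by -0.03 (SE 0.14) between skull and nostril injury, and both had an adjusted p of 1. ephb2a had levels of 5.46, 5.82 and 6.01 after skull injury, against 5.46, 5.44 and 5.41 after nostril injury, with a difference of 0.33 (SE 0.17) that also had an adjusted p of 1.

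The first 3 days held few calls outside skull injury at 3 dpi. In nostril injury at 2 dpi, sema3h and ephb2a were the 2 genes called (2.5%), where 0.516% of all tested probe sets were. That count was 0 without intact replicate 2 or 4 or nostril injury replicate 1 or 2, and 1 without intact replicate 3 or nostril injury replicate 3. In the same group the oligodendrocyte progenitor markers summed to 1142 to 1266, against 785 to 1006 in intact telencephalon, the olfactory bulb and epithelium markers to 253 to 277, against 216 to 239, and the neuronal markers to 19572 to 22235, against 16532 to 20291. The 15 markers of neighbouring brain regions summed to 574, 788 and 1426 in the 3 nostril injury replicates in rising order, against 583 to 821 in intact telencephalon. They also summed to 740, 744 and 1748 in nostril injury at 1 dpi and to 683, 780 and 1821 in skull injury at 2 dpi. The part of these markers in the results on guidance genes was not tested. In nostril injury limma called 0 genes at 1 dpi, where 0.821% of all probe sets were called, and 0 at 3 dpi, where 0.0762% were. In skull injury it called 0 at 1 dpi, where 0.597% of all were called, and 0 at 2 dpi, where 0.283% were. At an unadjusted p under 0.05 these counts were 5 and 6 for nostril injury at 1 and 3 dpi (10.2% and 7.03% of all) and 8 and 9 for skull injury at 1 and 2 dpi (10.6% and 9.05% of all). In nostril injury at 1 dpi, 1 gene was called without intact replicate 1.

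The largest differences among genes whose replicates did not overlap with intact, none past the adjustment, fell in several families. At 1 dpi after skull injury nrp1b, a co-receptor that also binds vascular growth factor, had levels of 7.92, 7.87 and 7.90, against 7.58, 7.52, 7.56 and 7.38 in intact telencephalon, and sema3aa had 8.64, 8.41 and 8.43, against 8.24, 8.02, 8.08 and 8.08. Their differences were 0.38 (adjusted p = 0.275) and 0.39 (adjusted p = 0.148). At 1 dpi after nostril injury the genes of this rule were epha4l at -0.32, robo4 at 0.28 and efna2b at -0.12. At 2 dpi after nostril injury efna1b was at -0.66 and sema4gb at 0.64, and at 3 dpi sema3ab was at 0.55, efna1b at -0.50 and sema4aa at 0.42. The intact mean of sema3ab, 4.06, lay below the level filter, which it passed only through injured groups. Its mean of 4.61 at 3 dpi after nostril injury was its highest, so its place here is partly set by the filter. At 2 dpi after skull injury ephb2a was at -0.55, sema4aa at 0.52 and sema3h at 0.48. The same rule gave plxnb1b at -0.72 and sema4ab at 0.65 at 7 dpi after nostril injury. The intact replicates of plxnb1b, a receptor for class 4 semaphorins in mammals, spread from 7.51 to 8.63.

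Between the injuries the rule named, at 1 dpi, efna1b at -0.36, plxnd1 at 0.36 and robo1 at -0.31, at 2 dpi, ephb4b at 0.37, sema4d at -0.31 and nrp1a at -0.17, and, at 3 dpi, plxnd1 at 0.44 beside efna1a and sema7a. At 7 dpi it named slit1b at -0.33 and epha3 at -0.23 beside ephb2a. None of these but efna1a passed the test.

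Skull injury at 7 dpi was then set against skull injury at 3 dpi, a comparison added after the data had been seen. It uses no intact sample, but its samples also stand in the comparisons with intact. Most guidance genes lay higher at 7 dpi than at 3 dpi: 66 of the 80 had a positive difference, with a median of 0.23, where the median of all tested probe sets was 0.06. Of the 80, 14 were called (17.5%), 13 higher and 1 lower, where 11.5% of all were called. Before adjustment, 31 were higher and 2 lower (38.8% and 2.5%), where 18.3% and 9.49% of all were. The genes named here outside the rule, nrp2a, sema4c, sema6cb, sema3fb, epha4a and epha4b, were chosen after their values were seen.

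The clearest were epha7 and both copies of neuropilin 2. epha7 had levels of 9.70, 9.68 and 9.70 in skull injury at 7 dpi, against 8.77, 9.32, 9.04 and 8.89 at 3 dpi, and was higher by 0.69 (SE 0.11, adjusted p = 0.00124). nrp2b had 8.02, 8.32 and 8.33 at 7 dpi, against 7.56, 7.59, 7.62 and 7.73 at 3 dpi, and was higher by 0.60 (SE 0.10, adjusted p = 0.00176). nrp2a had 8.07, 8.22 and 8.19 at 7 dpi, against 7.28, 7.83, 7.71 and 7.78 at 3 dpi, and was higher by 0.51 (SE 0.11, adjusted p = 0.00656). In none of these genes did the groups overlap, and each kept its call without any 1 replicate (adjusted p up to 0.0343).

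Among the ligands, efna1a was higher by 0.71 (SE 0.16, adjusted p = 0.00891), with levels of 8.26, 8.26 and 8.36 at 7 dpi, against 7.68, 8.0, 7.13 and 7.54 at 3 dpi. sema4c, a membrane semaphorin, had 7.02, 6.89 and 6.95 at 7 dpi, against 6.18, 6.84, 6.27 and 6.31 at 3 dpi, and was higher by 0.55 (SE 0.13, adjusted p = 0.0103). efna1a and sema4c also kept their calls without any 1 replicate, and each of the remaining 9 genes lost its call without at least 1. The membrane semaphorins sema4gb (0.70) and sema6cb (0.37) and the secreted sema3fa (0.48), sema3fb (0.49) and sema3h (0.39) were also called higher, with adjusted p of 0.0190 to 0.0358. The receptors epha4a (0.42), epha4b (0.38) and ephb6 (0.43), the last a receptor without kinase activity in mammals, were higher with adjusted p of 0.0309 to 0.0491. The 1 gene that was lower at 7 dpi was sema4aa, with 4.76, 4.99 and 4.84 at 7 dpi, against 5.29, 5.86, 4.98 and 5.53 at 3 dpi, a difference of -0.55 (SE 0.17, adjusted p = 0.0417) with overlapping replicates. The largest difference, 0.87 for efna1b, did not pass the test (adjusted p = 0.0917), and its levels at 7 dpi were 8.63, 9.81 and 10.16.

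**Figure D5:**
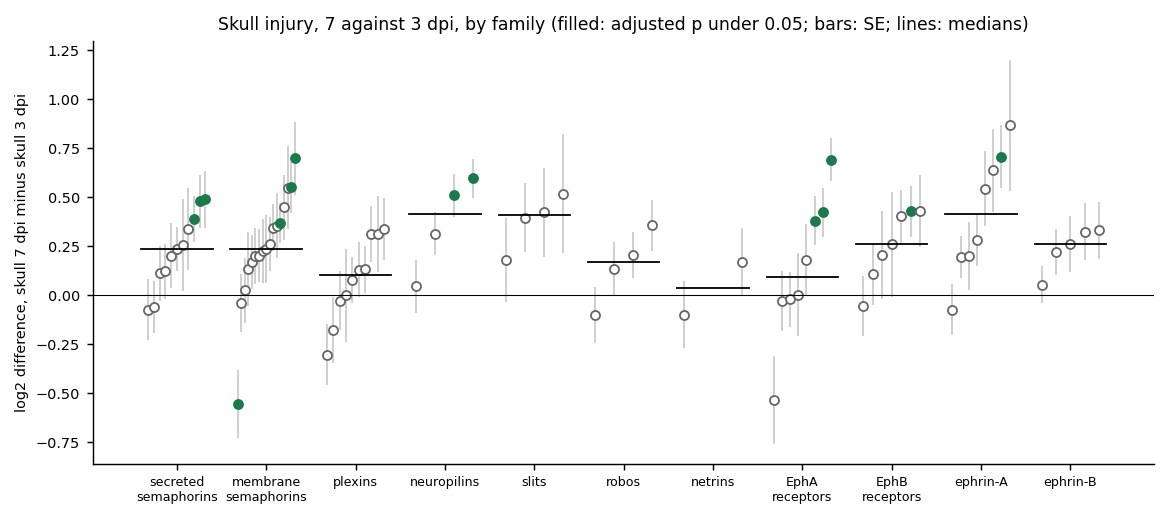
Log2 difference of each of the 80 genes between skull injury at 7 dpi and at 3 dpi, by family, with the SE (bars), the family median (lines) and filled points for an adjusted p under 0.05. The median of every family lies above 0, from 0.04 for netrins to 0.41 for neuropilins and ephrin-A, and sema4aa is the only filled point below 0.

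In the same comparison 9 of 16 microglia and macrophage markers were called lower at 7 dpi and 5 of 15 neuronal markers higher, with nefla the 1 lower. Of the 13 ependymoglia markers gja1b, glula and cyp19a1b were called higher and s100b lower. The part of these in the results on guidance genes was not tested. The count of 14 was 6 without replicate 3 of skull injury at 7 dpi and 7 without its replicate 2, 7 and 9 without replicates 1 and 3 of skull injury at 3 dpi, and 21 without its replicate 2 or 4. It was 7 (6 higher) after a further quantile normalization. There 2167 of all tested probe sets were called higher and 1750 lower, against 3383 and 1288 without that step. With arrays centred on their medians it was 17 (all higher), where 4006 of all were called higher and 1000 lower. The count was 6 with arrays weighted by their spread and 0 when the 2 groups alone were fitted. In nostril injury, 7 dpi set against 3 dpi, also added after the data had been seen, gave 0 calls among the 80 by limma, where 0.767% of all tested probe sets were called. There too most differences were positive, in 60 of the 80, with a median of 0.10, where the median of all tested probe sets was 0.01. At an unadjusted p under 0.05 the count was 11 (10 higher and 1 lower), where 13.1% of all were in either direction. sema3fa was at 0.53 (adjusted p = 0.0837) and ephb2a at -0.61 (adjusted p = 0.0886). Whether the change between 3 and 7 dpi differed between the injuries was not tested.

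Slits, robos and netrins held no call against intact. In the slit family the smallest F test p was that of slit1b, with levels of 5.38, 5.38 and 5.10 in nostril injury at 7 dpi, against 4.66, 4.66, 4.65 and 4.60 in intact telencephalon, a difference of 0.65 (adjusted p = 0.122). robo3, which in mammals steers axons across the midline, had 8.66, 8.59 and 8.70 in skull injury at 7 dpi and 8.69, 8.69 and 8.52 in nostril injury at 7 dpi, against 8.28, 8.36, 8.22 and 8.13 in intact telencephalon. Its replicates did not overlap with intact in either group, and its differences were 0.40 (adjusted p = 0.10) and 0.39 (adjusted p = 0.0910). The netrin gene ntn1b varied between -0.15 and 0.11 from intact over the 8 injury groups. Of the ephrin-B genes efnb2b had the smallest F test p, with a difference of -0.41 in skull injury at 3 dpi (adjusted p = 0.0546, and 0.00456 without replicate 2 of skull injury). Its second probe set was at -0.03 there. Of the 10 plexins, plxnd1 at 3 dpi after skull injury was the only one called. Their differences had a median of -0.15, -0.13, -0.17 and -0.07 at 1, 2, 3 and 7 dpi after skull injury and of -0.24, -0.15, -0.23 and -0.10 after nostril injury, where the median of all tested probe sets lay between -0.06 and 0.01. At 7 dpi 6 of the 10 were below intact after either injury. All these differences share the same 4 intact replicates, whose SD ranged from 0.10 for plxnd1 to 0.50 for plxna1a.

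Other genes of the same pathways were read from a list of 87, of which 71 were on the array and 69 were tested. None was called at 1 or 2 dpi, where 8 and 8 had an unadjusted p under 0.05 in skull injury at 1 and 2 dpi (11.6% each, with 10.6% and 9.05% of all probe sets) and 9 and 13 in nostril injury (13% and 18.8%, with 10.2% and 12.5% of all). At 3 dpi after skull injury 4 of the 69 were called (5.8%), where 7.86% of all probe sets were: rgma, a repulsive ligand, fell by 0.60 and farp2, a Rac activator below plexins, fell by 0.90, while mical1 and mical3b, of a family of oxidases that act below plexins in flies, rose by 0.38 and 0.44 (adjusted p 0.00862 to 0.0423). Set against nostril injury at 3 dpi, farp2 was also lower after skull injury, by -1.01 (adjusted p = 0.0173). At 7 dpi 3 of the 69 were called after each injury (4.35%), where 0.757% of all probe sets were called after skull and 1.76% after nostril injury. The semaphorin effector dpysl5b was higher by 0.52 after skull and by 0.52 after nostril injury, and limk1a, a kinase that stabilises actin, by 0.67 and 0.70 (adjusted p 0.0220 to 0.0415). crmp1 was higher after skull injury (0.63, adjusted p = 0.0369) and the axonal adhesion gene cntn1a after nostril injury (0.41, adjusted p = 0.0491). Between 7 and 3 dpi after skull injury 10 of the 69 were called higher and 0 lower (14.5%, where 11.5% of all probe sets were called), among them the netrin receptor unc5cb (0.65), the Rac activator tiam1b (0.60) and rgma (0.73).

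Of the 80 genes, 13 had more than 1 probe set with the same symbol, and the one with the highest mean was used. The second probe set of epha7 was at -0.16 in skull injury at 3 dpi, and at 0.45 at 7 dpi against 3 dpi, where the first was at -0.39 and 0.69. The mean of both lost its call at 3 dpi (adjusted p = 0.0903). The second probe set of nrp2a was at 0.55 at 7 dpi against 3 dpi, beside 0.51. The second probe set of slit1b was at 0.44 at 7 dpi after nostril injury, beside 0.65, but its sign differed from that of the first at 1, 2 and 3 dpi after skull injury (0.18, -0.05 and -0.07, beside -0.04, 0.31 and 0.14). Probe sets of epha6 disagreed, at 0.48 and -0.11 in skull injury at 3 dpi. Those of ephb2b had opposite signs against intact in every injury group, at -0.36 and 0.08 in skull injury at 3 dpi. Every gene with several probe sets had a disagreement in sign in some comparison, in part between small differences. Some members are neighbours in the zebrafish genome, namely efna1b and efna3b, robo1 and robo2, robo3 and robo4, sema3ab and sema3e, and sema3b and sema3bl.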

How the data were processed

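Total RNA of the telencephalon was amplified, labelled with biotin and hybridised by the authors, who obtained gene-level values with RMA in Affymetrix Expression Console (version 1.3 per the labels) with sketch-quantile normalization and median polish. The deposited values are on a log2 scale, for 75212 probe sets on 30 arrays, with array medians of 4.22 to 4.35. Intact replicate 1 was measured on 2 technical arrays (r = 0.979), which were averaged, giving 29 replicates in 9 groups. Genes were named from the platform annotation, and all 80 matched a RefSeq gene by number with the same symbol. The highest-mean probe set stood for each gene.

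limma 3.58.1 (R 4.3.3; lmFit and eBayes without trend) was fitted to all 9 groups at once over the 40670 probe sets whose linear mean passed 20 in at least 1 group (20 residual degrees of freedom), with Benjamini-Hochberg adjustment within each comparison and a threshold of 0.05. The study's criteria (unadjusted p under 0.05, fold above 1.6) were counted as a second rule. The script was tested on simulated data, with shifts larger than any difference called here and with the spread shuffled over the groups. That test does not give the power or error rate for these comparisons. Named genes were those called in a comparison with intact, between the injuries at matched times or in the F test, the member of each family with the smallest F test p, and in each of those comparisons the 3 with the largest difference among those with no overlap of replicates. The members and lists were chosen with earlier results of these data known. The alternatives were 2 scalings, array weights, no level filter, other probe sets, either technical array, other sets of fitted groups, the replicate number as a block and leaving out each replicate. Arrays give no read depth, and the number of replicates limits the precision. Figures were drawn with matplotlib 3.10.9.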

Additional observations from a re-analysis of the deposited data

Results flagged for a closer look

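In 6 groups of 4 replicates, out of 64 groups examined for 32 named genes, 1 replicate stood apart from the other 3; chance gives about 1 in 20 groups. In skull injury at 3 dpi, replicate 3 of epha3 had a level of 5.83 with the nearest other at 6.99, a gap of 0.903 of the group's range, and replicate 4 of ephb6 had 6.62 with the nearest at 7.03, a gap of 0.907 of the range. In intact telencephalon, replicate 4 of sema4aa had 4.65 with the nearest at 4.81 (0.921 of the range), replicate 2 of sema4ab 5.73 with the nearest at 6.04 (0.852) and replicate 4 of slit1b 4.60 with the nearest at 4.65 (0.839). For ntn1b, intact replicate 1 had 5.21 and the others lay at 5.20, a gap of 1.00 of a range that is itself 0.01. Without replicate 4 of intact, the call on sema4aa at 3 dpi after skull injury was lost (adjusted p = 0.0565, limma).

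At 3 dpi the difference of efna1a from intact was -0.60 after skull and -0.02 after nostril injury. Skull minus nostril injury, tested directly, gave -0.578 (adjusted p = 0.0485, limma), a call that lies at the threshold. It was lost without most single replicates of these groups and under several of the settings given below.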

How the results depend on the processing

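The counts of guidance genes called were recomputed under each alternative. No gene changed the sign of its difference in a comparison it is named for, with the mean over a gene's probe sets among the settings. Single probe sets did differ in sign in some comparison for every gene with several, among them slit1b, epha6, ephb2b and efnb2b. Several uncalled differences passed under some settings, such as those of nrp1a, nrp2a and sema4gb in skull injury at 7 dpi, which passed the test with array weights and with skull injury at 3 dpi out of the fit. The number called in skull injury at 3 dpi against intact (10) was 7 with arrays centred on their medians and 7 after a further quantile normalization. It was also 1 with array weights, 0 by the study's criteria, 5 with no level filter and 0 when its 2 groups alone were fitted, and 2 to 12 with 1 replicate left out. For skull injury at 7 dpi (2) it was 6 with array weights, 7 with skull injury at 3 dpi out of the fit, 1 by the study's criteria, with the first technical array alone, after a further quantile normalization, with no level filter and with the replicate block, 0 with its groups alone, and 0 to 2 with 1 replicate left out. The 1 gene by the study's criteria there was sema4gb, which limma did not call. For nostril injury at 7 dpi (3) it was 5 with array weights, 0 with its groups alone and 0 to 4 with 1 replicate left out. By the study's criteria it was 2, ephb2a and the uncalled plxnb1b. sema3h and sema3fa reached a 1.6-fold difference from intact in no group. For nostril injury at 2 dpi (2) it was 1 by the study's criteria and with no level filter, 0 with its groups alone, 0 with the replicate block, and 0 to 2 with 1 replicate left out. With array weights it was 2 for skull injury at 1 dpi and 1 at 2 dpi (0 in both otherwise), and for nostril injury at 1 dpi (0) it was 0 to 1 with 1 replicate left out.

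Between the injuries at 3 dpi (1) the number was 2 with arrays centred on their medians, 3 with the replicate block, 0 under 7 other settings (array weights, the study's criteria, either technical array alone, quantile normalization, no level filter, its groups alone) and 0 to 6 with 1 replicate left out. Between 7 and 3 dpi after skull injury (14) it was 6 with array weights, 4 by the study's criteria, 7 after quantile normalization and 17 with arrays centred on their medians. It was also 8 with no level filter, 0 with its groups alone and 6 to 21 with 1 replicate left out. Between 7 and 3 dpi after nostril injury (0) it was 2 with array weights, 1 by the study's criteria and 1 with skull injury at 3 dpi out of the fit. The F test called 6 to 10 under the other settings and 7 to 13 with 1 replicate left out. Most of these counts stand without the share of all probe sets called under the same setting. They show how the calls vary and do not set the guidance genes against the rest of the array. The cause of these shifts was not tested.

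Same-numbered replicates of different groups had a median r of -0.002 between their deviations over 109 pairs, 6 of them over 0.1. Over 264 pairs with other numbers it was 0.004, with 12 over 0.1. These values show no pairing by number but cannot exclude it or a shared batch, since deviations within such small groups constrain each other. The replicate block left 8 calls in skull injury at 3 dpi and 16 between 7 and 3 dpi after skull injury, and it changed other counts given above. The calls all lie at log2 differences of at most 0.74 against intact, and none was made when the groups compared were fitted alone.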
